A study of Oryza sativa with 19 samples.

Results

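The END models are predicted rice gene models that the arrays carry under a name ending in _END, such as 9636.m01547_END. They were taken as the non-control positions of both array designs, called S1 and S2, whose name has that ending. There were 14331 of them, 7631 on S1 and 6700 on S2, which was 17.0% of the 84068 positions of the series. Each END model had 1 position, and 0 models stood on both designs. The files do not explain the END mark, and they pair no gene name, genome position or probe sequence with a model, so models are given here by their identifier alone. Messenger RNA was measured on 2-colour Agilent oligonucleotide arrays on which Cy3 and Cy5 held RNA of the same sample.

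The groups were callus, panicle, root and shoot of Nipponbare (NB), a japonica rice, and shoot of IR64, an indica rice. Callus had been kept for 28 days on solid callus induction medium with the auxin analogue 2,4-dichlorophenoxyacetic acid, the panicles came from the field at late-boot stage, the roots from hydroponics in a growth chamber for 10 days, and both shoots from soil in a greenhouse for 10 days. For shoots, the methods of the study state an older age than the labels do. Of the 19 arrays, 10 were of S1, with 2 for each group, and 9 of S2, with 2 for each group but 1 for panicle. The RNA had been pooled over plants and each sample was hybridised repeatedly, so SD and p-values may cover repeated hybridisation of 1 pool only. The probes were designed on the Nipponbare genome, so weaker binding and lower expression in IR64 cannot be told apart. Likewise, fewer cells of a type and less RNA per cell cannot be told apart in bulk tissue.

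A gene model is a computed guess at where exons and coding sequence lie, and a signal on an array is a sign that RNA complementary to the probe was present. Models that are transcribed in all organs include those for basic cell functions, while others are read only in an organ such as the root or the developing inflorescence. Callus is a mass of dividing, undifferentiated cells, the panicle is the grass inflorescence, and shoots of seedlings are mostly green leaf tissue. Marker genes of these tissues could not be checked, because no identifier matched a gene name.

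A model counted as detected on an array if the scanner software marked both channels as well above background. A group was called detected if all its usable arrays had the mark, absent if none had it, and mixed in between. Signals were scaled to a median of 1000 on each array and channel. The replicate 2 arrays of S2 were the dimmest. Their median background-subtracted signal was 37.5 to 47.9, against 54.8 to 167.2 on S1 and 82.0 to 178.7 on the other S2 arrays. Of the 314 negative control spots, 0 to 2 were detected on an array. All replicate 2 arrays were scanned on 1 date, and the replicate 1 arrays on 3 other dates. NB shoot replicate 1 was the only array of its date on each design.

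On S1 the mean share of END models detected was lower in both shoots than in callus, panicle and root, and replicates of callus and of the shoots lay several points apart. It was 80.3% ± 6.66 in callus, 78.1% ± 2.0 in panicle, 78.4% ± 0.788 in root, 70.2% ± 6.14 in IR64 shoot and 70.2% ± 6.78 in NB shoot (SD, n = 2 arrays each). On S2 it was 70.0% ± 19.97 in callus, 66.9% ± 13.7 in root, 64.9% ± 12.5 in IR64 shoot and 62.9% ± 10.2 in NB shoot (SD, n = 2 arrays each), and 74.9% on the only panicle array. The lowest and highest arrays had 65.4% and 85.0% on S1, and 55.7% and 84.2% on S2. The 4 lowest were the replicate 2 arrays of S2. Brightness moved with these shares. On S1 the median background-subtracted signal was 100.4 to 167.2 on the callus, panicle and root arrays, 91.8 and 54.8 on the IR64 shoot arrays and 100.3 and 56.1 on the NB shoot arrays, and the dimmest shoot arrays had 65.8% and 65.4% detected. The part of brightness in the lower share of the shoots was not tested. With 2 arrays against 2, no exact test can reach p 0.05, so the order of the groups was not tested.

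END models were detected more often than CDS models, the other class of predicted gene models on the arrays, and less often than END3TU positions, a class marked so in the files. Over the S1 arrays 75.4% of END models were detected, against 67.5% of CDS models. The difference was 7.89 percentage points ± 2.34 (SD, n = 10 arrays), END being higher on 10 of 10 (exact paired permutation test, two-sided, p = 0.00195, the smallest the design allows). On S2 the shares were 67.1% for END models and 60.05% for CDS models, a difference of 7.09 points ± 3.68 (SD, n = 9 arrays), higher on 9 of 9 (exact p = 0.00391, also the smallest possible). Against END3TU positions the difference was -10.2 points ± 1.96 on S1, where 85.6% of END3TU positions were detected, and -14.6 points ± 4.25 on S2, where it was 81.7%, with END lower on every array of S1 and S2 (exact p = 0.00195, n = 10, and exact p = 0.00391, n = 9). These 4 tests gave an adjusted p of 0.00391 each (exact permutation test, Benjamini-Hochberg). All arrays of a design carry the same probes, so the p-values measure how the difference repeats over arrays. They do not measure how it would vary over other models of the classes. Without the replicate 2 arrays of S2 both S2 differences kept their sign on 5 of 5 arrays, at 5.14 and -11.9 points, and the exact p was 0.0625, the smallest that 5 arrays allow. The median scaled signal of the class on an array was 437 to 624 for END models, 314 to 518 for CDS models and 1156 to 1675 for END3TU positions.

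**Figure D1:**
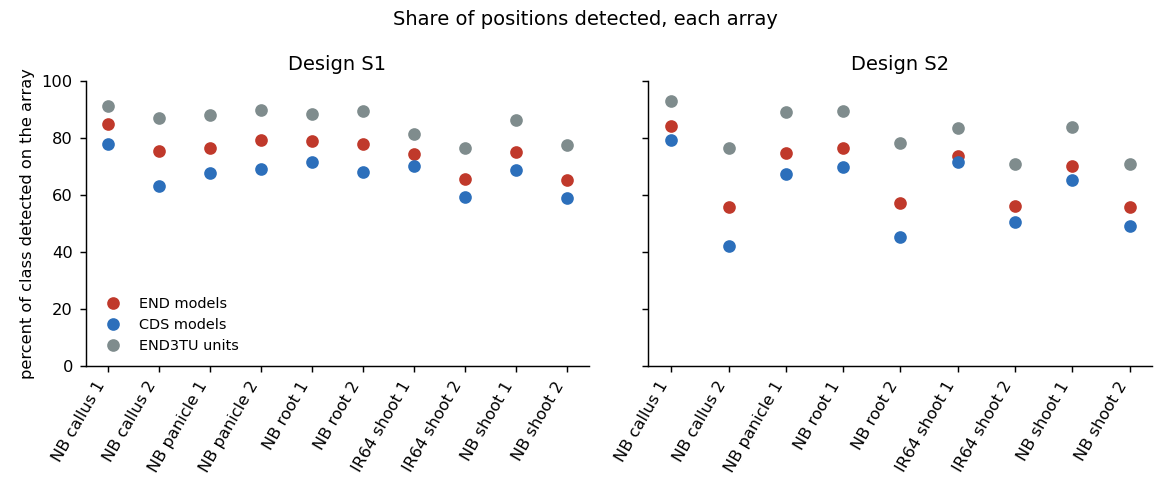
Percent of each class detected on each array (y axis), for the arrays of design S1 (left) and S2 (right), named by group and replicate on the x axis. Red points are END models, blue points CDS models and grey points END3TU positions. The red point lies above the blue one and below the grey one on each of the 19 arrays, and END models run from 55.7% to 85.0%.

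Most END models with a clear call in every group were either detected everywhere or nowhere. Of the 14331 models, 7061 (49.3%) were broad, which means detected in all 5 groups. Silent models, absent in all 5 groups, numbered 1420 (9.91%). Limited models, detected in 1 tissue and absent in all groups of the other tissues, numbered 262 (1.83%), with NB and IR64 shoot counted as 1 tissue. The other 5588 (39.0%) were intermediate. By design, 55.7% of END models were broad on S1 and 41.9% on S2, while 8.5% and 11.5% were silent and 1.36% and 2.36% limited.

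The silent share lay between those of the other classes. Of CDS models 15.2% were silent and 40.9% broad, and of END3TU positions 3.34% were silent and 63.7% broad. Of the remaining, cDNA-derived positions, 2.34% were silent and 73.1% broad. Limited were 1.47% of CDS models, 1.89% of END3TU positions and 1.19% of cDNA-derived positions, against 1.83% of END models. The median scaled signal of a silent END model was 82.6 in callus, 69.2 in panicle, 90.0 in root, 120 in IR64 shoot and 116 in NB shoot. A broad model had a median of 1454 in callus, 1385 in panicle, 1389 in root, 1717 in IR64 shoot and 1541 in NB shoot.

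Silence rested on the flag. With the software's test against background alone, without its step of 2.6 standard deviations, 159 END models were silent, 64 limited and 11358 broad. With a scaled signal above 1000 in place of the flag, 7435 were silent, 1605 limited and 3439 broad. The limited count also moved with the arrays used. It was 416 without callus replicate 1, 603 without callus replicate 2 and 580 without the replicate 2 arrays of S2, and 856 where a group counted as detected on at least 1 of its 2 arrays.

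**Figure D2:**
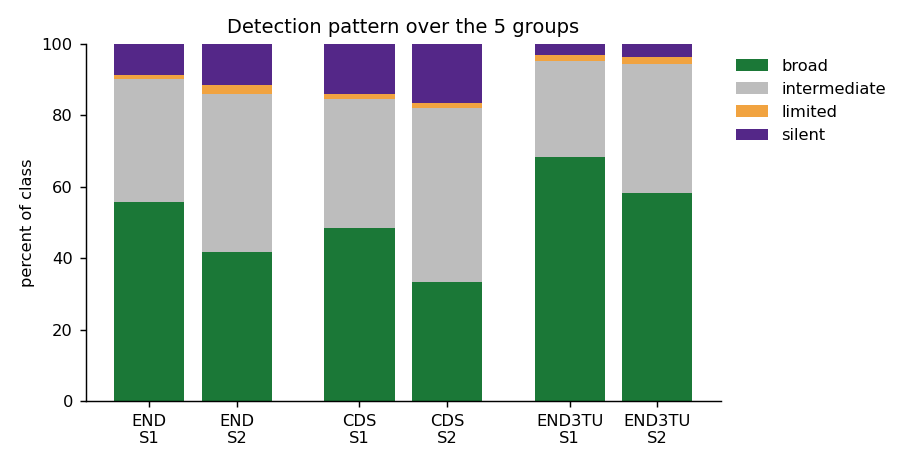
Percent of each class (y axis, bars from 0) that was broad (green), intermediate (grey), limited (orange) or silent (purple) over the 5 groups, for END models, CDS models and END3TU positions on designs S1 and S2. The purple part of the END bars is 8.5% on S1 and 11.5% on S2, and the green part 55.7% and 41.9%.

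Among the 9193 END models with a clear call in every group, the largest combination after broad and silent was detection in callus, panicle and root with absence in both shoots. It held 166 models, 87 on S1 and 79 on S2. The shoot arrays were the dimmest of their replicate number on each design. The part of brightness in absence in the shoots was not tested. The next combination was absence in IR64 shoot only, with 102 models, against 32 absent in NB shoot only. A single absence elsewhere was less frequent, at 8 models for callus, 10 for panicle and 11 for root. Detection in a pair of NB tissues and in no other group was found for 44 models in callus and panicle, 34 in callus and root, and 28 in panicle and root. The other 5138 models were mixed in at least 1 group. For the other classes only absence in IR64 shoot alone is given, further below. The remaining counts are thus not shown to be particular to END models.

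**Figure D3:**
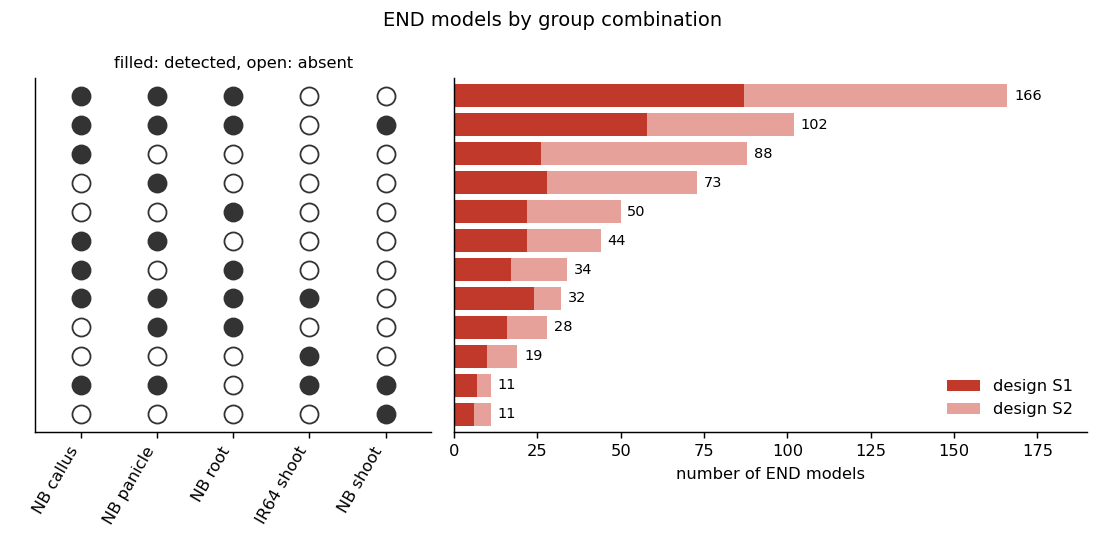
Numbers of END models (x axis, bars from 0) in the 12 most frequent clear combinations other than all detected and all absent. Filled circles mark groups in which the models were detected and open circles groups in which they were absent, and the bars give designs S1 (dark) and S2 (light). The top bar, absent in both shoots only, holds 166 models and the next, absent in IR64 shoot only, 102.

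Limited models were dim with few exceptions. Callus held 88 of the 262, panicle 73, shoot 51 and root 50. On S2 the 45 panicle models rested on 1 panicle array. The split by tissue is not given for the other classes, so it is not shown to be particular to END models. The median scaled signal in the own tissue was 327 for callus, 243 for panicle, 504 for root and 568 for shoot. For shoot the higher of the NB and IR64 shoot means was taken, here and in the values that follow, so shoot is favoured. The signal in the own tissue was above 1000 for 7 callus, 7 panicle, 13 root and 10 shoot models. The brightest reached 6890 in callus, 4066 in panicle, 70044 in root and 41391 in shoot. Of the shoot models, 10 were detected in both varieties, 19 in IR64 shoot with absence in NB shoot, and 11 in NB shoot with absence in IR64 shoot. The rest were detected in 1 shoot group and mixed in the other.

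Above a scaled signal of 1000, the level the study used against cross-hybridisation, fewer END models stood out. In at least 1 of the 4 NB tissues 6515 (45.5%) exceeded it, and in all 4 NB tissues 3541 (24.7%). By tissue these were 4960 (34.6%) in callus, 4607 (32.1%) in panicle, 4773 (33.3%) in root and 5092 (35.5%) in shoot. For CDS models the shares were 34.2% in at least 1 tissue and 19.6% in all 4, and for END3TU positions 74.1% and 44.8%. Both designs gave like shares of END models, with 45.5% on S1 and 45.4% on S2 in at least 1 tissue. At a threshold of 500 the count in all 4 tissues was 5832, and at 2000 it was 1984.

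Differences between tissues were tested with limma over all probes of a design detected in at least 1 group, which included 11694 END models, and calls were made at adjusted p below 0.05 (Benjamini-Hochberg). In callus against NB shoot 1076 END models were higher (9.20%) and 1025 lower (8.77%), where 13.7% of all probes tested were higher and 10.7% lower. In root against NB shoot 844 were higher (7.22%) and 719 lower (6.15%), with 11.6% and 8.03% of all probes. In panicle against NB shoot 645 were higher (5.52%) and 743 lower (6.35%), with 9.52% and 6.34% of all probes. END models were thus called higher than NB shoot in a smaller share than all probes in each of these comparisons, which share the NB shoot arrays. In median signal END models were dimmer than END3TU positions and brighter than CDS models. The part of signal level in these shares was not tested. In the lower direction the share of END models in panicle was close to that of all probes. By the methods of the study the RNA of both shoots was extracted with another reagent than that of callus, panicle and root, while the labels give that reagent for IR64 shoot only. The tissues also grew in different settings, so tissue and growth, and by the methods extraction, cannot be told apart here. With the 75th percentile in place of the median for scaling, the higher share of the panicle calls was 34.4%, against 46.5% with the median. The same scaling gave 798 higher and 879 lower calls in root and 1029 higher and 1247 lower calls in callus, so the balance of both turned. Shares of all probes are not given for this scaling.

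Fewer END models differed among callus, panicle and root. In panicle against root 304 were higher (2.6%) and 355 lower (3.04%), where 4.61% and 4.0% of all probes were called. In callus against root 468 were higher (4.0%) and 584 lower (4.99%), with 5.59% and 7.17% of all probes. In callus against panicle 415 were higher (3.55%) and 453 lower (3.87%), with 4.16% and 6.60% of all probes. S1 gave the larger part of the calls. On S1 there were 1533 calls in callus against NB shoot (24.1%, with 32.9% of all probes). In callus against panicle there were 778 (12.2%, with 17.7% of all probes). S2, with its single panicle array, added 568 in callus against NB shoot (10.7%, with 15.7% of all probes).

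On each design NB shoot replicate 1 had a scan date to itself. A block for scan date thus leaves the comparisons with NB shoot resting on NB shoot replicate 2. Here and below, percentages beside counts with this block are shares of all probes tested that were called, not of END models. Scan date moved the counts above. With it as a block, 2469 END models were called in root against NB shoot (29.1% of all probes), 2136 in panicle against NB shoot (22.5% of all probes), 3482 in callus against NB shoot (37.6% of all probes), 1315 in panicle against root (15.5% of all probes) and 1806 in callus against root (20.6% of all probes), in either direction. The balance turned in some of them. With the block, 1143 were higher and 1326 lower in root against NB shoot (17.1% and 12% of all probes), 1012 higher and 794 lower in callus against root (10.9% and 9.68% of all probes), and 732 higher and 569 lower in callus against panicle (6.89% and 7.74% of all probes). Single callus replicates turned it too. In callus against root 670 were higher and 446 lower without callus replicate 1, and 200 higher and 508 lower without callus replicate 2. Within 1 scan date a group had 1 array of a design, so no test could be made within a date. Leaving out some replicates lowered the counts by over 1.5 times. Shares of all probes are not given for these fits, so the counts do not show whether the loss is particular to END models. In root against NB shoot 1030 and 768 calls were left without root replicate 1 and 2, and 904 and 913 without NB shoot replicate 1 and 2. In panicle against NB shoot 609 and 740 were left without panicle replicate 1 and 2, and 687 and 736 without NB shoot replicate 1 and 2. In callus against NB shoot 1285 were left without callus replicate 2, fewer than the 1785 in root and 1714 in panicle against NB shoot under that setting, and 1189 and 1165 without NB shoot replicate 1 and 2. In panicle against root 323 and 409 were left without panicle replicate 1 and 2, and 389 and 329 without root replicate 1 and 2. In callus against root 558 and 478 were left without root replicate 1 and 2, and in callus against panicle 388 and 439 without panicle replicate 1 and 2. Without panicle replicate 1, S2 held no panicle array.

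Enrichment in 1 NB tissue, meaning a higher call against all 3 remaining NB tissues, was most frequent in shoot. It was found for 201 END models in callus (1.72%, with 2.22% of all probes), 121 in panicle (1.03%, with 1.81% of all probes), 233 in root (1.99%, with 2.39% of all probes) and 404 in shoot (3.45%, with 3.72% of all probes). Many enriched models were broad, namely 133 in callus, 68 in panicle, 98 in root and 258 in shoot, so a tissue-enriched model was often detected in all groups. Of all 11694 END models tested, 7061 were broad, so this is not shown to be particular to enriched models. Absence in the other 3 NB tissues held for 13 of the callus, 16 of the panicle, 20 of the root and 18 of the shoot models. The median log2 difference to the nearest NB tissue was 1.67 in callus, 2.21 in panicle, 2.40 in root and 1.85 in shoot. With scan date as a block, 465 were enriched in callus (4.30% of all probes) and 653 in shoot (5.22% of all probes).

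With scan date as a block, NB shoot rests on its replicate 2 array of each design. Counts of enriched models depended on single replicates as well. Shares of all probes are not given for the fits that follow, so the counts do not show whether a change is particular to END models. For callus 341 were found without callus replicate 1, 78 without callus replicate 2, 88 and 98 without panicle replicate 1 and 2, and 102 and 106 without root replicate 1 and 2. For panicle 62 and 67 were found without panicle replicate 1 and 2, 74 and 73 without root replicate 1 and 2, and 77 without NB shoot replicate 1. For root 124 were found without panicle replicate 1, and 149 and 120 without root replicate 1 and 2. For shoot 213 were found without panicle replicate 1, 250 without root replicate 2, and 243 and 185 without NB shoot replicate 1 and 2.

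The model most enriched in callus was 9636.m01547_END on S2. Its scaled signal was 32897 and 94583 in callus, 323 on the panicle array, 256 and 263 in root, 439 and 384 in IR64 shoot and 374 and 359 in NB shoot. Both callus arrays lay far above all others, and the log2 difference to NB shoot, the nearest NB tissue, was 7.25 ± 0.53 (SE; limma adjusted p = 0.000406). NB shoot was well above background on 1 of its 2 arrays, so this takes the dim array at its own value. The call was lost when only the groups compared were fitted, at a log2 difference of 7.25. Next came 9637.m02506_END on S1, with 19579 and 34908 in callus, 230 and 242 in panicle, 347 and 266 in root, 326 and 316 in IR64 shoot and 189 and 384 in NB shoot. It was 6.43 ± 0.41 higher than root on the log2 scale (SE; limma adjusted p = 9.62e-06).

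In panicle the first model was 9636.m01249_END on S2, measured there on 1 array. That array gave 18842, against 767 and 351 in callus, 381 and 318 in root, 638 and 434 in IR64 shoot and 528 and 336 in NB shoot. The log2 difference to callus was 5.18 ± 0.63, with callus well above background on 1 of its 2 arrays (SE; limma adjusted p = 0.00670), and since the single array is assumed to vary like the other groups, this p rests on their spread. The call was lost without either NB shoot replicate and when only the groups compared were fitted. On S1, 9635.m00790_END had 32502 and 36486 in panicle, 889 and 857 in callus, 1174 and 1018 in root, 899 and 922 in IR64 shoot and 770 and 810 in NB shoot. It was detected in all groups and 4.98 ± 0.27 higher in panicle than in root on the log2 scale (SE; limma adjusted p = 3.53e-06).

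Both leading root models were well above background in root only. On S2, 9630.m03565_END had 46304 and 100000 in root, the higher value being the upper limit of the scale. It had 37.2 and 138 in callus, 46.8 in panicle, 66.1 and 189 in IR64 shoot and 87.2 and 156 in NB shoot, none of them well above background. It was at least 255-fold higher in root than in NB shoot (limma adjusted p = 0.000775), and the call was lost when only the groups compared were fitted. On S1, 9637.m03335_END had 58545 and 83801 in root, against 82.1 and 104 in callus, 158 and 139 in panicle, 160 and 199 in IR64 shoot and 149 and 174 in NB shoot. It was at least 332-fold higher there than in NB shoot (limma adjusted p = 2.18e-06).

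Of the 2 leading shoot models, 1 was also called lower in IR64 shoot. On S1, 9631.m06193_END had 64566 and 100000 in IR64 shoot and 71770 and 66586 in NB shoot, against 190 and 88.0 in callus, 160 and 67.2 in panicle and 162 and 107 in root. It was at least 445-fold higher in NB shoot than in root (limma adjusted p = 4.01e-06), and the arrays of the varieties overlapped. On S1, 9636.m00375_END had 2211 and 5935.5 in IR64 shoot and 96900 and 77897 in NB shoot, against 101.3 and 182 in callus, 172 and 175 in panicle and 192 and 149 in root. Of the panicle arrays, the nearest NB tissue, 1 of 2 was well above background, and the log2 difference of NB shoot to panicle was 8.97 ± 0.48 with the dim array at its own value (SE; limma adjusted p = 4.72e-06). For this model IR64 shoot was also called lower than NB shoot, by a log2 difference of -4.58 (limma adjusted p = 0.000848), with no overlap of the arrays.

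The identifiers of the 5 leading models began with 4 or 5 different prefixes in each of these lists.

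**Figure D4:**
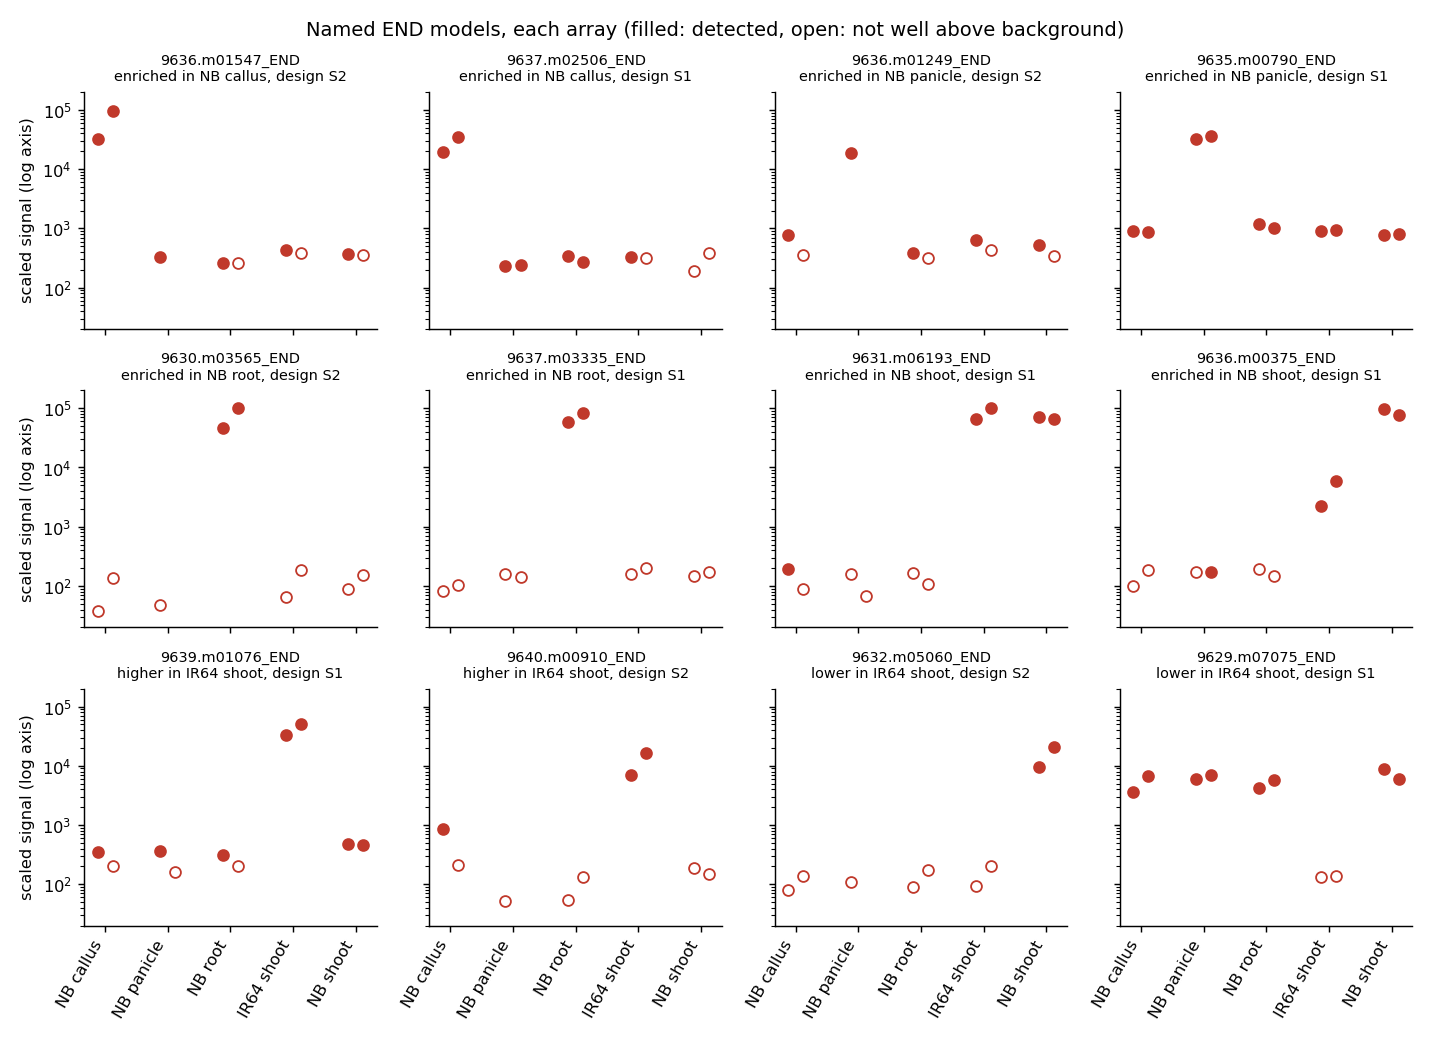
Scaled signal (y axis, log scale) of 12 END models on each array, by group (x axis). Filled circles are arrays on which the model was well above background and open circles those on which it was not. In the 4 root and shoot panels of the middle row the bright arrays lie above 2000 and the others below 200, while the model lower in IR64 shoot at the lower right has about 131 and 139 in IR64 shoot and over 3000 in every other group.

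In IR64 shoot against NB shoot 67 END models were higher (0.573%, with 0.380% of all probes) and 75 lower (0.641%, with 1.34% of all probes), 133 of the 142 on S1. With scan date as a block 136 were higher and 61 lower (0.658% and 1.06% of all probes), so the balance turned, and with the replicate number as a block 476 were called in all. The block for scan date leaves NB shoot resting on its replicate 2 array in each design. By the labels the RNA of the varieties was extracted with different reagents, and by the methods of the study with the same one. If the labels hold, variety and extraction cannot be told apart. With each pair of groups fitted alone there were 8. Single replicates mattered, with 77 and 52 calls without IR64 shoot replicate 1 and 2, and 44 and 60 without NB shoot replicate 1 and 2. By the flags, 121 END models were detected in IR64 shoot and absent in NB shoot, and 155 were absent in IR64 shoot and detected in NB shoot. These were 0.844% and 1.08% of END models, against 0.653% and 0.460% of CDS models, 0.519% and 1.97% of END3TU positions and 0.319% and 1.32% of cDNA-derived positions. Absence in IR64 shoot with detection in all 4 NB groups held for 102 END models (0.712%), 0.175% of CDS models, 1.32% of END3TU positions and 0.967% of cDNA-derived positions. Of the 102, 9 were also called lower in IR64 shoot.

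The model with the largest call toward IR64 shoot was 9639.m01076_END on S1, with 33543 and 51276 in IR64 shoot and 473 and 464 in NB shoot. It stayed at 163 to 362 in callus, panicle and root. The log2 difference was 6.47 ± 0.46 (SE; limma adjusted p = 0.000142). On S2, 9640.m00910_END had 6976 and 16329 in IR64 shoot, against 192 and 149 in NB shoot, which were not well above background, so it was at least 40.0-fold higher (limma adjusted p = 0.0248). Its call was lost when any of the 4 shoot arrays was left out.

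Toward NB shoot, 9632.m05060_END on S2 had 92.5 and 207 in IR64 shoot and 9629 and 20731 in NB shoot, and it was well above background in NB shoot alone of the 5 groups. It was at least 54.4-fold lower in IR64 shoot (limma adjusted p = 0.00829), a call lost when any of the 4 shoot arrays was left out. On S1, 9629.m07075_END had 131 and 139 in IR64 shoot, against 8957 and 6023 in NB shoot. It was bright in the other NB tissues too, with 3550 and 6769.5 in callus, 5930 and 6857 in panicle and 4205 and 5650 in root. It was at least 32.8-fold lower in IR64 shoot (limma adjusted p = 0.000101). This is the combination of detection in all NB tissues with absence in IR64.

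Some broad models were at the top of the scale. Of 7015 broad models detected on every array, 324 reached the upper limit of 100000 on at least 1 array and 15 on all arrays, among them 9640.m00747_END and 9640.m04293_END, whose levels have no order. Among the 6691 that stayed under the limit, the median range of the 5 group means was 1.18 on the log2 scale. For 479 of them the range was at most 0.5, for 4123 it was 1 or more and for 1342 it was 2 or more.

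Under the limit, the broad model with the highest floor was 9629.m06408_END on S1, at 45180 and 79682 in callus, 73410 and 59154 in panicle, 55675 and 63884 in root, 51851 and 89327 in IR64 shoot and 82385 and 72188 in NB shoot. Replicates of callus differed more than the groups did. The steadiest was 9640.m03118_END on S1, at 593 and 710 in callus, 734 and 574 in panicle, 604 and 724 in root, 682 and 654 in IR64 shoot and 547 and 813 in NB shoot. Its 5 group means lay within 0.04 on the log2 scale, less than the spread between its replicates. Both were chosen after their values were seen, because the models first in order by level and by steadiness lay at the upper limit.

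The part of the identifier before .m took 12 values, 9629 to 9640, with 806 to 1609 END models each. The files do not say what it stands for. Every prefix held silent, limited and broad models. The silent share was lowest for 9634 and highest for 9632 on S1, at 5.33% and 11.9%, and lowest for 9639 and highest for 9637 on S2, at 9.09% and 15.4%. The broad share was highest for 9631 on both designs, at 60.1% on S1 and 47.3% on S2. It was lowest for 9637 and 9639 on S1, at 51.4% each, and for 9635 on S2, at 37.5%. Over the 12 prefixes the designs, which hold different models, had a Pearson correlation of 0.69 for the broad share and 0.31 for the silent share. On the arrays, END models of 9631 were detected more often than those of 9632 on 19 of 19, at 74.2% and 68.3% on average, a difference of 5.91 points ± 2.26 (SD, n = 19 arrays). This pair was chosen as the extremes, so it was not tested. Models enriched in 1 NB tissue made up 5.13% of prefix 9636 and 8.65% of prefix 9638, the lowest and the highest share.

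Within a prefix the share detected also varied over the model number, which follows .m. The bins named here were chosen for their shares after these were seen, so they were not tested. In bins of 500 numbers, END models of prefix 9629 were detected on 76.4% of the arrays at 500 to 999, on 60.7% at 2000 to 2499, on 62.1% at 2500 to 2999 and on 85.1% at 4000 to 4499. The bin of 2000 to 2499 had 60.6% on S1 and 60.8% on S2. Other bins differed between the designs, such as 500 to 999 of prefix 9634, with 93.4% on S1 and 66.7% on S2. In prefix 9632 the bins below 3000 lay between 59.9% and 68.3%, and those from 3000 on between 69.0% and 79.7%. In prefix 9638 the bin of 2000 to 2499 had 59.9%, with 23 of 114 models silent, and the bin of 3000 to 3499 had 84.5%, with 3 of 116 silent. Over 124 bins with at least 20 END models of each design, the correlation between the designs was 0.32 (Pearson) and 0.35 (Spearman). The bins of END and CDS models, which share arrays, correlated at 0.58 (Pearson) and 0.59 (Spearman). These describe the bins only. The files do not say what the order of the numbers stands for.

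**Figure D5:**
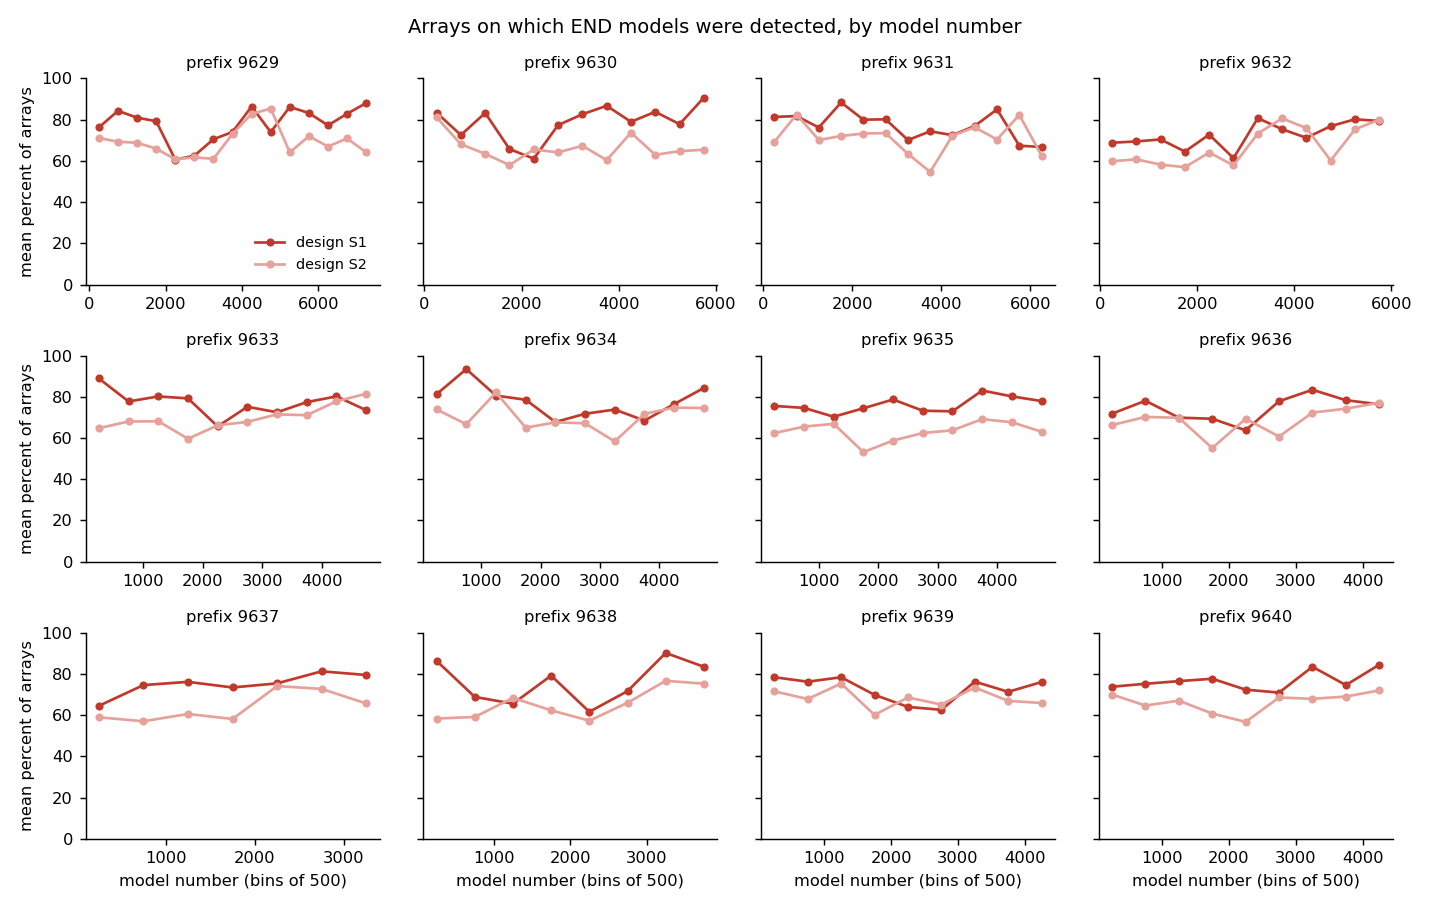
Mean percent of arrays on which END models were detected (y axis) in bins of 500 model numbers (x axis), a panel for each of the 12 prefixes, for designs S1 (dark) and S2 (light). Prefix 9629 dips to 60.6% on S1 and 60.8% on S2 at 2000 to 2499, and prefix 9638 to 61.6% and 57.3% in the same range of numbers.

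After processing, the dyes differed little for END models. The processed signal had the dyes balanced inside the array, and each channel was scaled to the same median. A median ratio near 0 was thus largely set by the processing and is no measure of dye agreement before it. The median log2 ratio of Cy5 over Cy3 over the detected END models of an array lay between -0.03 and 0.01 on the 19 arrays, and 0.0213% to 1.31% of detected models differed by over 2-fold between the dyes. A comparison of END and CDS probes of the same model could not be made, since 0 models had both.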

How the data were processed

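The authors ran Agilent Feature Extraction, version 8.1.1.1 per the file headers and 7.5 per the submitters' processing notes. Its processed signal, deposited as an intensity for every spot, had the background subtracted and the dyes balanced inside the array (a linear step, then LOWESS), with no step across arrays. The deposited flags record signal above background in each channel. The deposited log10 ratio and its p-value were not used.

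The study's methods set the median of each array to 1000 and values above 100000 to 100000. Here this was done channel by channel, with control spots left out of the median, and with the same upper limit. The mean of the log2 values of both channels was the value of an array. Outlier spots, 76 among END models over all arrays, were left out and saturated ones kept. Tests used limma 3.58.1 in R 4.3.3 (lmFit, eBayes, two-sided) on the probes of a design detected in at least 1 group, with all 5 groups in 1 fit, and SciPy 1.17.1 for exact permutation tests. The calls of both designs were added. Where the dimmer group was not well above background, a bound is given ("at least"): the mean of the brighter group against a floor, which on each array was the lowest signal of a detected probe or the value of the model where that was higher. Named models had the largest log2 differences among called models without overlap of arrays, up to 2 identifiers a list and direction being printed, and broad models the highest floor or the smallest range. The identifiers matched no reference gene name. The members, lists and rules were chosen with earlier results of these data known. The fit was tested on simulated data. The files of processed log10 ratios repeat the ratio of the spots. Signal over background and the number of arrays limit the precision. Alternatives were other scalings, background correction, filters, flags, thresholds, blocks and arrays left out.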

Additional observations from a re-analysis of the deposited data

How the results depend on the processing

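Of 30 named models with a tested difference, none changed direction in 538 values under the alternatives. In 501 of them the call was kept, and 15 models lost it at least once, all 15 when only the groups compared were fitted. The differences in share of END models kept direction and threshold under the other flags. Without the S2 replicate 2 arrays, a choice made after seeing the data, they were 5.14 against CDS and -11.9 against END3TU, past the threshold no longer, since 5 arrays allow no smaller exact p than 0.0625. Leaving out 1 array gave 7.40 to 8.28 on S1 and 6.23 to 7.70 on S2 against CDS, and -10.6 to -9.995 on S1 and -15.4 to -13.8 on S2 against END3TU. Silent models numbered 159 under the plain background test, 815 with 1 channel enough and 7435 by signal above 1000. Limited ones were 64 under the plain test, 1605 by signal, 856 with at least 1 of 2 arrays and 580 without the S2 replicate 2 arrays, and broad ones 11358 and 3439 under the first and the last of the flags. Leaving out 1 replicate gave 1427 to 1745 silent, 282 to 603 limited and 7046 to 7308 broad, and 6417 to 6680 and 3236 to 3577 models above 1000 in at least 1 and in all 4 NB tissues, where thresholds of 500 and 2000 gave 5832 and 1984 in all 4.

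No label says what a replicate number stands for. All replicate 2 arrays share a scan date and the replicate 1 arrays do not. NB shoot replicate 1 was alone on its date in each design, so a block for scan date leaves NB shoot resting on replicate 2. Deviations from the group means correlated at 0.22 to 0.59 on S1 and 0.63 to 0.84 on S2. As a replicate block the numbers gave 3039 calls for root, 2906 for panicle and 3935 for callus against NB shoot (26.1%, 25% and 33.8% of END models tested, with 34.7%, 31.3% and 41.6% of all probes). They gave 1276 for panicle and 2329 for callus against root, 1755 for callus against panicle and 476 for IR64 against NB shoot (with 15.6%, 25.1%, 19.9% and 4.18% of all probes), and 545, 248, 411 and 789 enriched in callus, panicle, root and shoot (with 4.93%, 3.41%, 4.13% and 7.37% of all probes). Scan date as a block gave 2469, 2136, 3482, 1315 and 1806 for the first 5 pairs and 465 and 653 enriched in callus and shoot. Probes detected on every array gave 961 for root against NB shoot, 316 and 607 for panicle and callus against root, 531 for callus against panicle, 68 for IR64 and 126, 65, 87 and 258 enriched in callus, panicle, root and shoot. Only the groups compared gave 1236 for callus against NB shoot, fewer than for root (1553) and panicle (1482), and for callus 261 against root and 237 against panicle, with 8 for IR64. Quantile normalization gave 231 and normexp 227 for IR64, and normexp 340 enriched in callus. Leaving out 1 replicate gave 768 to 1793, 609 to 1714, 1165 to 2430, 323 to 738, 478 to 1116, 388 to 828 and 44 to 166 calls in the order of pairs above, and 78 to 341, 62 to 130, 120 to 222 and 185 to 436 enriched in callus, panicle, root and shoot. The 75th percentile moved the median of all probes by up to -0.24 on the log2 scale (panicle against NB shoot on S1). The cause of these shifts was not tested. Where no share of all probes stands beside a count, the count does not show whether the change is particular to END models.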
